A study of Mus musculus with 9 samples.

Results

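The expression of 5 mouse genes of blood vessel growth and its inhibition is described here in dendritic cells exposed to lysophosphatidic acid (LPA), a signalling lipid that acts on cell-surface receptors. They are Vegfa and Vegfb, which encode vascular endothelial growth factors, Nrp1 and Nrp2, which encode the neuropilin co-receptors, and Thbs1, which encodes thrombospondin-1. The genes were found by matching the transcript identifiers of each of the 38887 rows of the count table to gene symbols and taking, per symbol, the row with most counts. Each symbol had a single row, so the rows chosen by summed count were the only ones, and the 5 rows are all members. They were proposed as a set with earlier results of these data known, so the tests below describe the size of a difference against the spread between libraries and are not independent evidence.

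The study measured RNA-seq in cultured mouse bone marrow-derived dendritic cells, antigen-presenting cells grown from bone marrow, and asked how LPA from ovarian tumours affects type I interferon responses. The groups were cells given LPA for 6 h (n = 3), cells given LPA for 2 h (n = 3) and untreated cells (n = 3). The labels read here name no LPA dose, vehicle, culture condition or mouse strain, and no time for the untreated cells. Time with LPA thus cannot be told apart from time in culture. Nothing says whether replicates came from separate animals or cultures. The p-values therefore measure only the spread between these libraries, which may be technical.

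VEGF-A drives the growth and leakiness of blood vessels by binding the receptor tyrosine kinases VEGFR1, encoded by Flt1, and VEGFR2, encoded by Kdr, while VEGF-B binds VEGFR1. Neuropilins have short cytoplasmic tails and serve as co-receptors, for VEGF isoforms with VEGFR2 and for class 3 semaphorins with plexins. Thrombospondin-1 is a secreted matrix glycoprotein that inhibits vessel growth through CD36 and CD47 and activates latent TGF-beta, and myeloid cells including dendritic cells are known to make both VEGF-A and thrombospondin-1.

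The libraries held between 29628817 and 84596899 counts. Markers of conventional dendritic cells summed to 5574 to 6058 CPM (counts scaled to library size with TMM factors) at 6 h, 6199 to 6838 at 2 h and 5983 to 6901 in untreated cells, with all 9 listed markers detected. Macrophage markers, which such cultures also carry, summed to 4114 to 4322, 4130 to 4210 and 3857 to 3907 CPM in the same order of groups, with most of the sum from Csf1r (2629, 2523 and 2251 CPM on average). Most of the dendritic cell marker sum came from Cd74 (3252, 3645 and 3597 CPM on average, in the same order of groups). Flt3, Zbtb46 and Batf3 of that list averaged at most 19.7 CPM in any group, so the sum says little about them. Markers of stromal fibroblasts, T cells and B cells stayed at or below 1.92 CPM in every library. In untreated replicate 2 the 7 endothelial markers other than Kdr summed to 21.9 CPM, against 5.47 to 9.02 CPM in the other 8 libraries, and values without that library are given where they matter. In bulk RNA, fewer cells of a type and less RNA per cell cannot be told apart.

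All 5 genes are protein-coding and are placed here by the GENCODE M21 annotation on GRCm38, the assembly that mm10 names. Vegfa (ENSMUSG00000023951) lies at chr17:46016993-46032369 on the minus strand, and Vegfb (ENSMUSG00000024962) at chr19:6982473-6987651 on the minus strand. Nrp1 (ENSMUSG00000025810) lies at chr8:128358604-128503363 and Nrp2 (ENSMUSG00000025969) at chr1:62703285-62818695, both on the plus strand. Thbs1 (ENSMUSG00000040152) lies at chr2:118111876-118127133 on the plus strand. The Vegfa row pooled 11 of 13 annotated transcripts, the Nrp2 row 7, the Vegfb row 3 and the Thbs1 row 2, so splice forms of VEGF-A or of neuropilin-2 were not separated. The Nrp1 row held only 1 of the 4 annotated Nrp1 transcripts. Its level and length therefore rest on 1 transcript, against 7 for Nrp2. Thbs1 shares 208 exon bases with a long non-coding RNA on the opposite strand, Gm29233. Because the libraries were not stranded, the gene of origin of reads from that stretch cannot be told. Gm29233 has no row in the count table, so no such read was counted for it.

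Promoter sequence was available in the RefSeq table of GRCm38.p6 for 4 of the 5 genes, at the first annotated start for 3 of them. These 3 are shown because they set the induced growth factor gene beside its paralogue and beside the neuropilin gene that fell most. Each is printed from 5′ to 3′ on the gene's own strand and ends before the annotated transcript start, with matches to the Sp1 GC box GGGCGG on either strand in capitals.
Vegfa, chr17:46032378-46032627, minus strand: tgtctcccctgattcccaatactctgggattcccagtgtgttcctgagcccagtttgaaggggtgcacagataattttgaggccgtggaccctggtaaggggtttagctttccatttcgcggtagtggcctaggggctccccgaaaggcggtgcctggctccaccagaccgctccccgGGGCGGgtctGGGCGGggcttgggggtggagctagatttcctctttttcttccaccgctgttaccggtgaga
Vegfb, chr19:6987652-6987901, minus strand: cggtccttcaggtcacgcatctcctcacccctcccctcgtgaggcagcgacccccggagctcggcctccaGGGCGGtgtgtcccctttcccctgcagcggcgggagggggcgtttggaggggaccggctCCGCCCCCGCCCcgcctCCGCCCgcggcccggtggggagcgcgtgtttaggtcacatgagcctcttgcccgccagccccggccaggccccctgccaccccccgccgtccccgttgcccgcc
Nrp2, chr1:62703067-62703284, plus strand: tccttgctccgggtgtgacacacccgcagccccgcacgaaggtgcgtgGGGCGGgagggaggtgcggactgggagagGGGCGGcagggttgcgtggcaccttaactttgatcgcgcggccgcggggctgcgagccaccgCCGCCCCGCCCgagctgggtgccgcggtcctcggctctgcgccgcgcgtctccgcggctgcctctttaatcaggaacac
The Vegfa window held 2 GC boxes and was 59.2% GC, the Vegfb window held 4 and was 76.4% GC, and the Nrp2 window held 4 and was 72.5% GC, against a median of 52.4% over all windows. GC box matches may overlap or adjoin, and 32.7% of the 32851 windows of 250 bases and 28.2% of those cut to 218 bases held at least 1. ACGTG, the core of the hypoxia response element, TGACG, the core of the cAMP response element, and TGANTCA, the AP-1 site, were searched on both strands and had no match in the 3 windows. Among all windows of 250 bases, 16.6% held ACGTG, 17.8% TGACG and 6.75% TGANTCA, and for 218 bases the shares were 14.3%, 14.6% and 6.05%. A missing match says only that these letters are not in this window.

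Vegfa was far higher after LPA at both times, while its paralogue Vegfb was slightly lower at 2 h. Vegfa, which encodes the main driver of vessel growth, had 196, 147 and 167 CPM in the 3 libraries of the 6 h group and 266, 219 and 252 CPM in those of the 2 h group, against 28.5, 25.7 and 23.2 CPM in untreated cells. The lowest LPA library thus lay far above the highest untreated library at both times, and all 3 libraries of the 6 h group lay below all 3 of the 2 h group. Vegfa averaged 245 ± 24.4 CPM at 2 h and 25.8 ± 2.66 CPM in untreated cells (SD, n = 3 each), a log2 fold change of 3.25 ± 0.13 (SE, edgeR adjusted p = 2.17e-07), which is 9.52-fold. At 6 h the mean was 169.8 ± 24.5 CPM (SD, n = 3), and the log2 fold change against untreated cells was 2.72 ± 0.13 (SE, edgeR adjusted p = 3.77e-07), or 6.58-fold. Between the times Vegfa fell by 0.53 ± 0.11 on the log2 scale at 6 h relative to 2 h (SE, edgeR adjusted p = 0.00427). Ordered from the highest log2 fold change, Vegfa stood at rank 42 of 14363 genes tested at 2 h and at rank 63 at 6 h, each against untreated cells.

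Vegfb, whose product does not bind VEGFR2, was lowly expressed throughout. It had 16.1, 16.6 and 18.6 CPM at 6 h and 16.3, 14.99 and 14.96 CPM at 2 h, against 18.1, 20.2 and 19.0 CPM in untreated cells. The 2 h and untreated libraries did not overlap, whereas the highest 6 h library lay within the untreated range. The log2 fold change at 2 h against untreated cells was -0.31 ± 0.07 (SE, edgeR adjusted p = 0.00399). At 6 h it was -0.16 ± 0.07 (SE, 95% interval -0.29 to -0.02, edgeR adjusted p = 0.0801), and at 6 h against 2 h it was 0.15 ± 0.07 (SE, 95% interval 0.01 to 0.29, edgeR adjusted p = 0.0936). Neither passed the threshold of an adjusted p of 0.05. Without replicate 3 of the 6 h group, the 6 h value became -0.22 and passed (edgeR adjusted p = 0.0311).

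**Figure D1:**
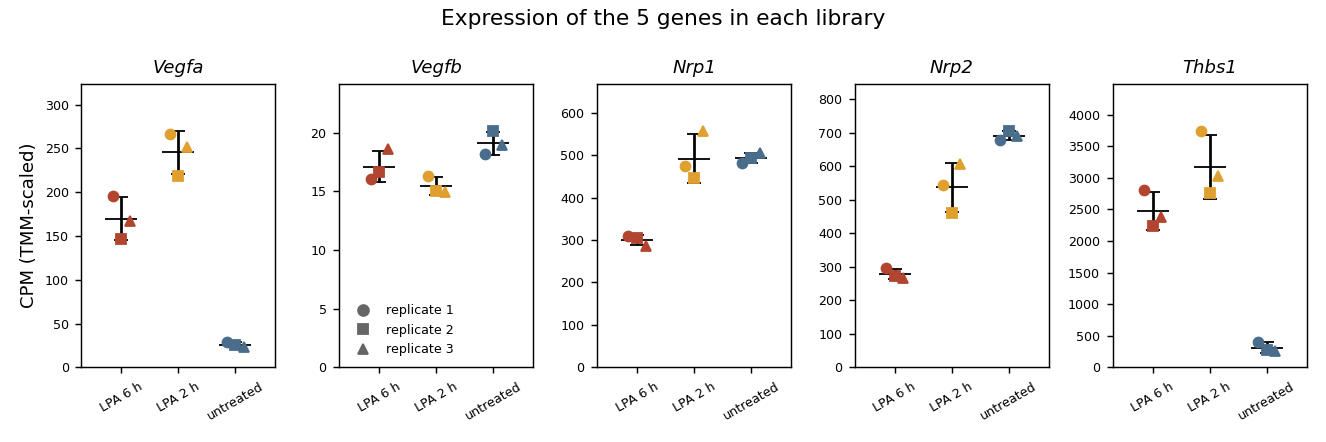
Expression of the 5 genes in CPM (vertical axes, from 0) in every library, with groups from left to right LPA 6 h, LPA 2 h and untreated; symbols mark replicate numbers, and bars give the mean and SD (n = 3). All LPA libraries lie above all untreated libraries for Vegfa and Thbs1, and the 6 h libraries lie below all others for Nrp1 and Nrp2.

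Both neuropilin genes were lower after 6 h of LPA, and at 2 h only Nrp2 passed the test. Nrp1, which encodes the co-receptor for VEGF-A and semaphorin 3A, had 309, 305 and 287 CPM at 6 h and 474, 445 and 557 CPM at 2 h, against 481, 493 and 505 CPM in untreated cells. The 6 h libraries lay below all others, and the 2 h libraries spread on either side of the untreated ones. The log2 fold change at 2 h was -0.0019 ± 0.07 (SE, approximate 95% interval -0.14 to 0.14, edgeR adjusted p = 0.988). At 6 h Nrp1 fell by 0.71 ± 0.07 on the log2 scale against untreated cells (SE, edgeR adjusted p = 6.31e-06), to 300.4 ± 11.6 CPM, against 493 ± 12.3 CPM in untreated cells (SD, n = 3 each). It fell by 0.71 ± 0.07 at 6 h against 2 h as well (SE, edgeR adjusted p = 2.63e-05).

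Nrp2, which encodes the co-receptor for VEGF-C and semaphorin 3F, had 296, 273 and 266 CPM at 6 h and 545, 459 and 606 CPM at 2 h, against 678, 705 and 691 CPM in untreated cells. The 3 groups did not overlap, with the 6 h group lowest and the untreated group highest. Nrp2 fell by 0.37 ± 0.08 on the log2 scale at 2 h (SE, edgeR adjusted p = 0.00525) and by 1.31 ± 0.09 at 6 h (SE, edgeR adjusted p = 6.07e-07), each against untreated cells. At 6 h this left 278 ± 15.6 CPM, against 691 ± 13.7 CPM in untreated cells (SD, n = 3 each), a level 2.48-fold higher in untreated cells. At 6 h against 2 h it fell by 0.95 ± 0.08 on the log2 scale (SE, edgeR adjusted p = 2.22e-05). The 2 h library with the lowest Nrp1 and Nrp2, replicate 2, was also the deepest of the 9, and without it the 2 h value of Nrp2 was -0.26 (edgeR adjusted p = 0.00234) and that of Nrp1 0.07 (edgeR adjusted p = 0.45). At 6 h, where Nrp1 and Nrp2 fell, 4 of 9 dendritic cell markers were called lower and 1 higher, and 5 of 9 macrophage markers lower and 3 higher, against 25.7% lower and 26.4% higher among all genes tested. The lower macrophage markers were C1qa, C1qb, C1qc, Adgre1 and Fcgr1, and the lower dendritic cell markers were Itgax, H2-Ab1, Batf3 and Dpp4. The higher macrophage markers were Mertk, Csf1r and Cd68, and the higher dendritic cell marker was Ccr7. The part of all these markers in the neuropilin differences was not tested.

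Thbs1 had the largest log2 fold change of the 5 genes at both times, but at 2 h only slightly above the 3.25 ± 0.13 (SE) of Vegfa. It had 2811, 2231 and 2386 CPM at 6 h and 3741, 2757 and 3020 CPM at 2 h, against 405, 280 and 255 CPM in untreated cells. Every LPA library lay above every untreated library, whereas the 6 h and 2 h libraries overlapped. The log2 fold change was 3.34 ± 0.22 at 2 h (SE, edgeR adjusted p = 2.03e-05) and 2.98 ± 0.21 at 6 h (SE, edgeR adjusted p = 1.94e-05), each against untreated cells, or 10.1-fold and 7.91-fold. At 6 h against 2 h it was -0.36 ± 0.20 (SE, approximate 95% interval -0.74 to 0.03, edgeR adjusted p = 0.178). Without untreated replicate 1, which enters the fit through the shared estimate of the spread, this comparison passed (-0.36, edgeR adjusted p = 0.0432). With the replicate number as a block it passed as well (-0.35, edgeR adjusted p = 0.00248), but the labels state no pairing.

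Replicate 1 had the highest Thbs1 and the highest Vegfa value of its group in all 3 groups. Thbs1 took up 0.276% to 0.366% of all counts of a library at 2 h and 0.227% to 0.289% at 6 h, against 0.0254% to 0.0403% in untreated libraries. By counts per kilobase it ranked between 54 and 80 among all genes of a library at 2 h and between 67 and 94 at 6 h, against ranks 755 to 1231 in untreated libraries. Platelets are a known store of thrombospondin-1. The 6 listed platelet and megakaryocyte markers summed to 92.6 to 103 CPM at 2 h and 75.6 to 79.2 CPM at 6 h, against 83.5 to 91.5 CPM in untreated cells, and 4 of them were tested. At 2 h 3 of these 4 were called higher, against 19.3% of all genes tested, and at 6 h 1 was higher and 1 lower, against 26.4% and 25.7%. Most of the sum came from Pf4 and Ppbp, at means of 52.8 and 43.6 CPM at 2 h. Itga2b and Gp1ba, called higher at 2 h along with Pf4, averaged only 1.28 and 1.55 CPM there. Gp6 and Gp9 were too low to be tested, though none of the 6 was at 0 in all libraries. The part of these markers in the Thbs1 difference was not tested.

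**Figure D2:**
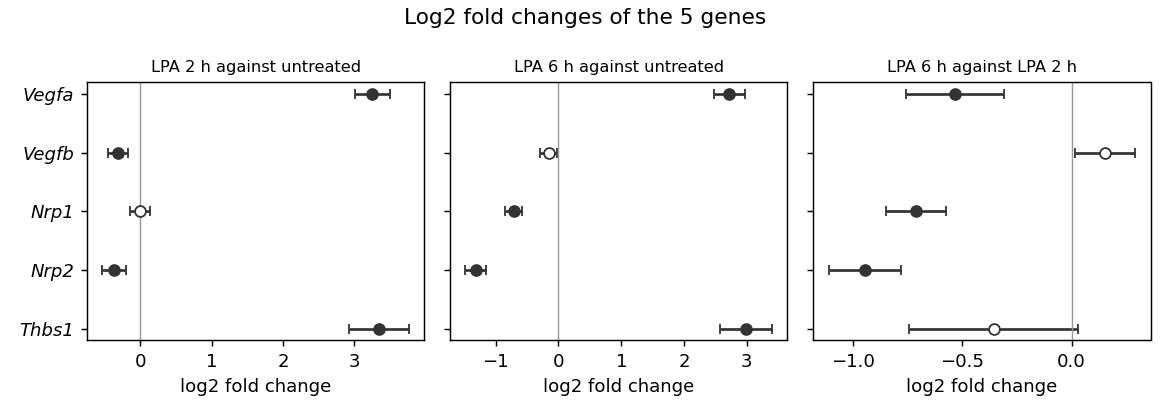
Log2 fold change of each gene (horizontal axes) in the 3 comparisons, with 95% intervals from edgeR over 9 libraries; filled points have an adjusted p under 0.05 and open points do not, and the axes differ between panels. Vegfa and Thbs1 lie near 3 against untreated cells at both times, and Nrp2 moves further below 0 at 6 h (-1.31) than at 2 h (-0.37).

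Of the 5 genes, 4 were called at 2 h against untreated cells, where 38.5% of the 14363 genes tested were called. At 6 h 4 were called against a background of 52.0%, and at 6 h against 2 h 3 were called against a background of 48.7%. Without overlap between groups were 4 of the 5 genes at 2 h against untreated cells (48.2% of all genes tested), 4 at 6 h (63.0%) and 3 at 6 h against 2 h (58.9%). With so many genes called, counts over 5 genes are read as a description alone, and the sizes are given beside those of all genes. The median absolute log2 fold change over all genes was 0.19 at 2 h and 0.26 at 6 h against untreated cells, and the 5th and 95th percentiles were -0.64 and 0.78 at 2 h and -0.98 and 0.88 at 6 h. The Vegfa and Thbs1 values lay above the 95th percentile at both times, and the Nrp2 value lay below the 5th percentile at 6 h. The 2 comparisons with untreated cells share the untreated libraries and so are not independent of each other.

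Per kilobase of transcript, with the mean length of the transcripts in each row, the order of the genes differed between LPA-treated and untreated cells. At 2 h the levels were 975 ± 157 CPM per kilobase for Thbs1, 197 ± 19.6 for Vegfa, 137 ± 16.2 for Nrp1, 94.6 ± 13.0 for Nrp2 and 16.0 ± 0.794 for Vegfb (SD, n = 3). The order was the same at 6 h, at 761 ± 92.3, 136 ± 19.7, 83.5 ± 3.23, 49.1 ± 2.75 and 17.7 ± 1.37 CPM per kilobase. No neighbours in these orders overlapped. In untreated cells Nrp1 came highest at 137 ± 3.41 CPM per kilobase, then Nrp2 at 122 ± 2.42, Thbs1 at 96.2 ± 24.7, Vegfa at 20.7 ± 2.14 and Vegfb at 19.8 ± 1.05. There Nrp2 and Thbs1 overlapped, and so did Vegfa and Vegfb. With the summed length of all exons as the length, Nrp1 came above Vegfa at 6 h (83.5 against 39.6 CPM per kilobase) and at 2 h (137 against 57.3), and Vegfb above Vegfa in untreated cells (11.9 against 6.01). Thbs1 stayed highest in both LPA groups and Nrp1 highest in untreated cells with either length.

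Ratios of counts per kilobase within a library do not depend on its depth. Their levels depend on the length used, here the mean transcript length, whereas differences in log2 ratio between groups do not. With the summed length of all exons, the untreated ratios of Vegfa to Vegfb were 0.588, 0.477 and 0.458. Those of Nrp1 to Nrp2 were then 2.33, 2.30 and 2.41. The ratio of Vegfa to Vegfb was 9.45, 6.86 and 6.95 at 6 h and 12.7, 11.3 and 13.0 at 2 h, against 1.22, 0.988 and 0.947 in untreated cells. The 3 groups did not overlap. The mean log2 ratio was 3.56 higher at 2 h and 2.88 higher at 6 h than in untreated cells, and 0.68 lower at 6 h than at 2 h. The ratio of Nrp1 to Nrp2 was 1.64, 1.76 and 1.70 at 6 h and 1.37, 1.53 and 1.45 at 2 h, against 1.12, 1.10 and 1.15 in untreated cells. Its mean log2 value was 0.37 higher at 2 h and 0.60 higher at 6 h than in untreated cells, and 0.23 higher at 6 h than at 2 h, again without overlap. Each of these 6 differences gave a p of 0.1 in a two-sided exact permutation test, the smallest that 3 libraries against 3 can give, so the design cannot reach 0.05.

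The log2 ratio of Vegfa to Thbs1 moved less than that of Vegfa to Vegfb. It was -2.46, -2.54 and -2.46 at 6 h and -2.43, -2.27 and -2.20 at 2 h, against -2.44, -2.06 and -2.08 in untreated cells. The 2 h and untreated libraries overlapped (difference -0.11, two-sided exact permutation p = 0.6). The 6 h mean differed by -0.29 from untreated cells and by -0.18 from 2 h (two-sided exact permutation p = 0.1 each). After Benjamini-Hochberg adjustment over the 9 ratio tests, the values of 0.1 became 0.113 and that of 0.6 stayed 0.6.

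**Figure D3:**
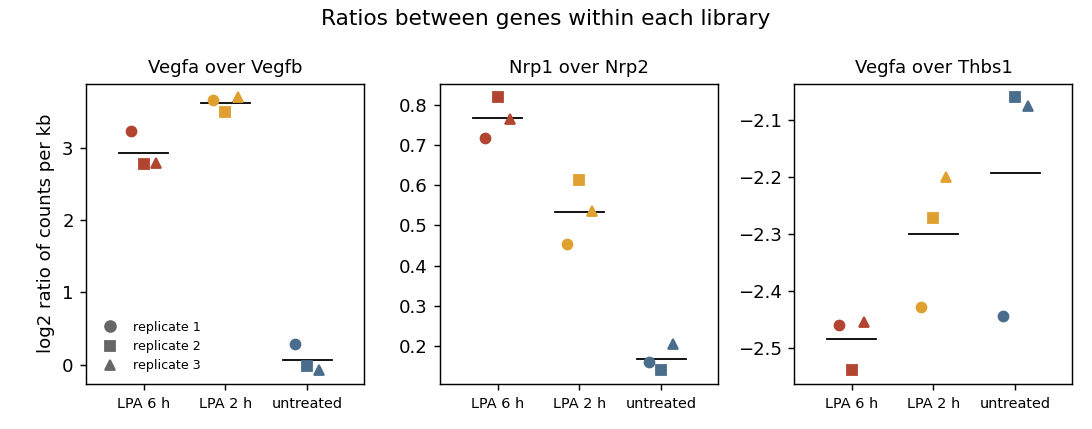
Log2 ratio of counts per kilobase between paired genes within each library (vertical axes), with groups from left to right LPA 6 h, LPA 2 h and untreated; bars are means of 3 libraries, symbols mark replicate numbers, and axes differ between panels and do not start at 0. The Vegfa to Vegfb and Nrp1 to Nrp2 ratios separate all 3 groups, and the Vegfa to Thbs1 ratio spans only -2.54 to -2.06.

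The other VEGF ligands and receptors were at low levels, apart from Kdr. Pgf, which encodes placenta growth factor, a VEGFR1 ligand, had 4.21, 6.75 and 6.15 CPM at 6 h and 3.59, 4.90 and 4.02 CPM at 2 h, against 1.34, 2.07 and 1.60 CPM in untreated cells. It rose by 1.31 ± 0.21 on the log2 scale at 2 h (SE, edgeR adjusted p = 0.000495) and 1.77 ± 0.21 at 6 h (SE, edgeR adjusted p = 3.5e-05). Vegfc and Vegfd, the lymphatic growth factor genes, were not called in any comparison. Among the receptors, Flt1 had 3.35, 1.62 and 2.26 CPM at 6 h, against 9.16, 8.01 and 6.29 CPM in untreated cells, and fell by 1.75 ± 0.26 (SE, edgeR adjusted p = 0.000367). Kdr, an endothelial VEGF receptor gene, had 56.4, 50.6 and 59.6 CPM at 6 h, against 30.9, 26.4 and 23.8 CPM in untreated cells, a log2 fold change of 1.04 ± 0.20 (SE, edgeR adjusted p = 0.00367). At 2 h the values were -0.49 ± 0.23 for Flt1 (edgeR adjusted p = 0.131) and -0.15 ± 0.20 for Kdr (edgeR adjusted p = 0.611). Flt4, the VEGFR3 gene, rose by 0.61 ± 0.20 at 6 h (SE, edgeR adjusted p = 0.0235) at levels of at most 1.27 CPM. The 7 endothelial markers other than Kdr summed to 8.56 to 9.02 CPM at 6 h, against 5.47, 21.9 and 6.20 CPM in untreated cells, and their part in the Kdr difference was not tested.

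Among the partners of the neuropilins in semaphorin signalling, 3 of 5 plexin genes fell at each time. Of the 7 class 3 semaphorin genes only Sema3c had enough counts to be tested, and it was not called in any comparison. Among 5 plexin genes, which encode the signalling receptors that pair with neuropilins, 0 rose and 3 fell at 2 h, where 19.3% and 19.2% of all genes tested rose and fell, and the median log2 fold change was -0.50. At 6 h 1 rose and 3 fell, where 26.4% and 25.7% of all genes did, with a median of -0.32. Plxna1 had 870, 1013 and 928 CPM at 2 h, against 1435, 1556 and 1500 CPM in untreated cells. It fell by 0.68 ± 0.06 at 2 h and by 0.32 ± 0.06 at 6 h, each against untreated cells (SE, edgeR adjusted p = 4.81e-06 and 0.000921). At 6 h it was thus higher than at 2 h, by 0.36 ± 0.06 on the log2 scale (SE, edgeR adjusted p = 0.00057). Plxnd1 fell by 0.50 ± 0.05 at 2 h (SE, edgeR adjusted p = 9.04e-06) and by 0.66 ± 0.05 at 6 h (SE, edgeR adjusted p = 6.27e-07). Plxna3 fell by 0.80 at 2 h and by 1.09 at 6 h, and was at most 2.06 CPM in any library. Plxna2, at 13.0, 11.1 and 12.9 CPM at 6 h against 7.88, 6.85 and 7.57 CPM in untreated cells, rose by 0.73 ± 0.09 (SE, edgeR adjusted p = 4.1e-05). The median log2 fold change over all genes was close to 0 in every comparison.

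Thbs1 changed by more than the other tested genes of its family, whose log2 fold changes against untreated cells lay between -0.34 and 1.00. Thbs2 was too low to be tested, and Thbs3 and Thbs4, which encode related matrix proteins, were not called at 2 h. At 6 h Thbs3 rose by 1.00 ± 0.36 (SE, edgeR adjusted p = 0.0338) at a mean of 0.546 CPM, against 0.265 CPM in untreated cells, and Thbs4 was at 0.49 ± 0.19 (SE, edgeR adjusted p = 0.0514). Comp, a cartilage thrombospondin, rose by 0.46 ± 0.12 at 2 h (SE, edgeR adjusted p = 0.00829) at levels of 4.56 to 5.58 CPM, against 3.07 to 3.89 CPM in untreated cells. Its value at 6 h was -0.34 ± 0.12 (SE, edgeR adjusted p = 0.0376), a call that was lost in 9 of the alternatives, with adjusted p up to 0.128. Among 10 genes for thrombospondin-1 receptors and partners, 4 rose and 1 fell at 2 h (19.3% and 19.2% of all genes tested), and 5 rose and 3 fell at 6 h (26.4% and 25.7%). Cd47, the receptor that inhibits phagocytosis, had 205, 164 and 201 CPM at 2 h, against 129.7, 129.7 and 131 CPM in untreated cells, and rose by 0.54 ± 0.09 (SE, edgeR adjusted p = 0.000538). At 6 h its value was 0.21 ± 0.09 (SE, edgeR adjusted p = 0.063). Cd36, a scavenger receptor, was at 1969 to 2179 CPM at 6 h and 2170 to 2303 CPM at 2 h, against 1716 to 1886 CPM in untreated cells, and rose by 0.32 ± 0.05 at 2 h (SE, edgeR adjusted p = 0.000588) and 0.22 ± 0.05 at 6 h (SE, edgeR adjusted p = 0.00499). Itgb3 and Itgav, which encode the integrin pair alpha-v beta-3, rose at 6 h by 0.80 ± 0.07 (SE, edgeR adjusted p = 2.56e-06) and 0.79 ± 0.07 (SE, edgeR adjusted p = 1.77e-06), and Itga3 rose by 1.01 ± 0.24 at 2 h (SE, edgeR adjusted p = 0.0065) and was at most 2.06 CPM in untreated cells. Tgfb1, whose latent product thrombospondin-1 activates, was not called in any comparison, at log2 fold changes of 0.01 at 2 h and -0.0013 at 6 h.

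**Figure D4:**
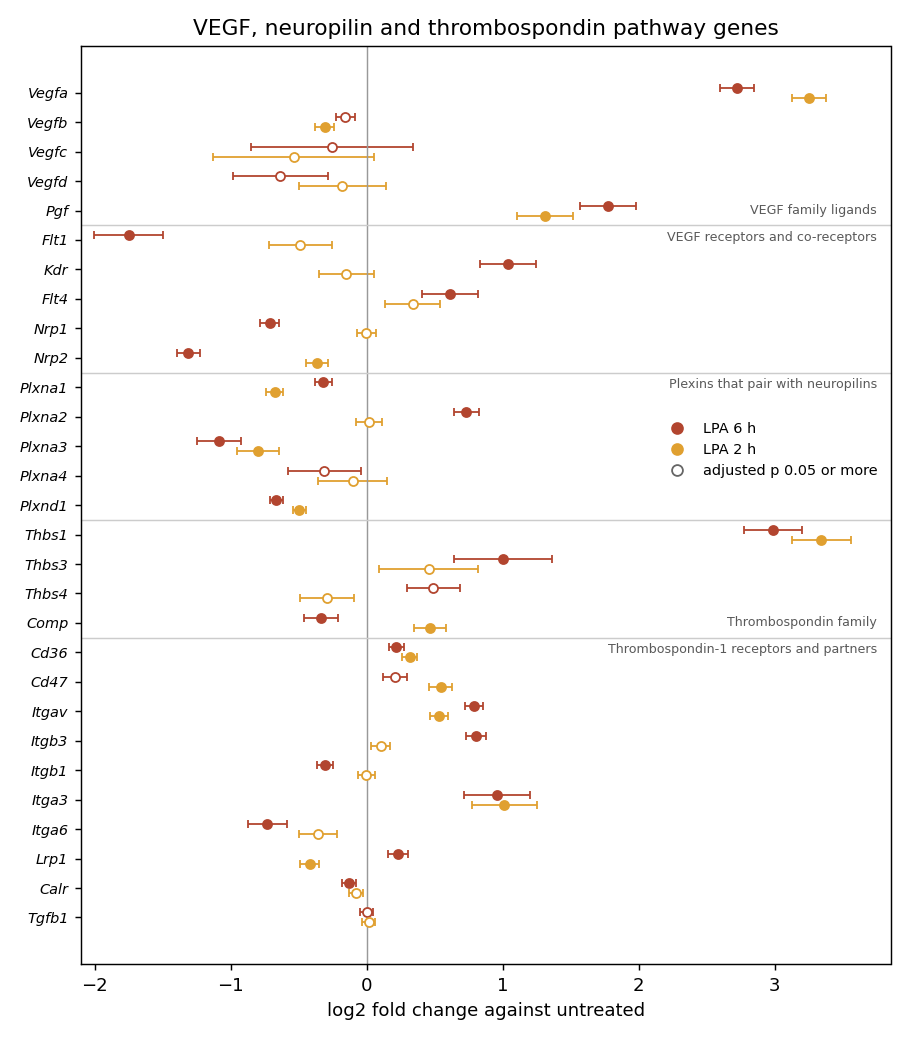
Log2 fold change against untreated cells (horizontal axis) of the tested genes of 5 lists, with SE bars, at 6 h (dark red) and 2 h (yellow); open points have an adjusted p of 0.05 or more. Vegfa and Thbs1 lie near 3, and all other genes shown lie between -1.75 and 1.77.

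Target genes of the hypoxia-inducible factor (HIF), a known regulator of Vegfa, moved in both directions. At each time, 4 of 8 tested genes for HIF subunits and their oxygen-dependent regulators rose and 0 fell. Those that rose were Hif1a, Arnt, Vhl and Hif1an at 2 h and Arnt, Egln1, Vhl and Hif1an at 6 h. Of these, Egln1, Vhl and Hif1an are regulators and not subunits, so the counts do not describe the subunits alone. Among all genes tested, 19.3% rose and 19.2% fell at 2 h, and 26.4% rose and 25.7% fell at 6 h. Hif1a, the oxygen-regulated subunit gene, had 401, 355 and 375 CPM at 2 h, against 318, 293 and 284 CPM in untreated cells, and rose by 0.34 ± 0.06 (SE, edgeR adjusted p = 0.000719). At 6 h its value was 0.13 ± 0.06 (SE, edgeR adjusted p = 0.0787). Arnt, its dimerisation partner, rose by 0.31 ± 0.05 at 2 h and 0.22 ± 0.05 at 6 h (SE, edgeR adjusted p = 0.000386 and 0.00283). The regulator gene Hif1an rose by 0.17 ± 0.05 at 6 h (SE, edgeR adjusted p = 0.0112). That call was lost without replicate 3 of the 6 h group (edgeR adjusted p = 0.0645). Egln1 rose by 0.13 ± 0.05 at 6 h (SE, edgeR adjusted p = 0.0433). Of 20 HIF target genes tested, 8 rose and 2 fell at 2 h, with a median of 0.10, where 19.3% and 19.2% of all genes tested rose and fell. At 6 h 10 rose and 6 fell, with a median of 0.26, where 26.4% and 25.7% of all genes did. The number that fell at 6 h was near that share, and the number that rose was above its share at both times. Those that fell at 6 h were Ak4, Pdk1, Pgk1, Aldoa, P4ha1 and Slc2a1. Hilpda, a lipid droplet protein gene, had 348, 356 and 366 CPM at 6 h and 289, 334 and 327 CPM at 2 h, against 8.69, 10.4 and 9.21 CPM in untreated cells. It rose by 5.06 ± 0.08 at 2 h and 5.24 ± 0.08 at 6 h (SE, edgeR adjusted p = 1.41e-12 and 1.02e-12). Ddit4, an inhibitor of mTORC1, rose by 2.62 ± 0.15 at 2 h and 1.61 ± 0.15 at 6 h (SE, edgeR adjusted p = 5.6e-07 and 1.09e-05).

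Of 9 other angiogenic growth factor genes tested, 3 rose and 2 fell at 2 h (19.3% and 19.2% of all genes tested), and 2 rose and 3 fell at 6 h (26.4% and 25.7%). Pdgfc rose by 0.58 ± 0.10 at 2 h (SE, edgeR adjusted p = 0.000594), to 7.13 to 8.63 CPM, against 4.61 to 5.72 CPM in untreated cells. Igf1, at 115, 121 and 128 CPM at 6 h against 176, 170 and 199 CPM in untreated cells, fell by 0.58 ± 0.10 (SE, edgeR adjusted p = 0.000883). Hgf rose by 0.49 ± 0.14 at 6 h (SE, edgeR adjusted p = 0.0133), a call lost without untreated replicate 2 (0.39, edgeR adjusted p = 0.0562). Pdgfa had a value of -0.59 ± 0.17 at 2 h (SE, edgeR adjusted p = 0.0272), a call lost in 7 of the alternatives, with adjusted p up to 0.0883. Cxcl12, named after its values were seen, was among the genes that fell at 6 h, but untreated replicate 2 held 94 of its 169 counts. Of 4 other inhibitors of vessel growth tested, Vash1 alone was called, with a rise of 0.67 ± 0.12 at 6 h (SE, edgeR adjusted p = 0.000999) and no call at 2 h.

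Between the LPA times, receptors and partners moved in both directions. In the receptor list without the 2 neuropilin genes, 1 gene rose and 1 fell of 3 tested at 6 h against 2 h, where 24.3% and 24.4% of all genes tested rose and fell. Kdr rose by 1.19 ± 0.20 and Flt1 fell by 1.26 ± 0.26 (SE, edgeR adjusted p = 0.00223 and 0.00319). Among the plexin genes Plxna2 rose by 0.72 ± 0.09 and Plxna1 by 0.36 ± 0.06 (SE, edgeR adjusted p = 0.000103 and 0.00057). In the thrombospondin family Thbs4 rose by 0.78 ± 0.20 at levels of at most 1.87 CPM, and Comp fell by 0.80 ± 0.12 (SE, edgeR adjusted p = 0.00567 and 0.000262). Of the thrombospondin-1 receptor and partner genes 3 rose and 2 fell, with Itgb3 at 0.70 ± 0.07 and the endocytic receptor gene Lrp1 at 0.65 ± 0.07 (SE, edgeR adjusted p = 2.78e-05 and 4.83e-05). Lrp1 had fallen by 0.42 ± 0.07 at 2 h against untreated cells (SE, edgeR adjusted p = 0.000659). Ddit4 fell by 1.02 ± 0.14, Pdgfa rose by 0.90 ± 0.17 and Vash1 rose by 0.74 ± 0.12 (SE, edgeR adjusted p = 0.00022, 0.00313 and 0.000699).

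Likeness of profiles was measured as the root mean square difference between log2 CPM values, each gene centred on its own mean over the 9 libraries, among 9532 genes. The gene closest to Vegfa was Thbs1, at 0.17, against a median of 1.44 over all genes compared. Next came Osm, the cytokine oncostatin M, at 0.22, and Il1r2, the decoy interleukin-1 receptor, at 0.25. For Thbs1 the next after Vegfa were Sdcbp2 at 0.29 and Il1r2 at 0.33, against a median of 1.53. Osm had a mean of 62.9 CPM at 2 h, against 6.36 CPM in untreated cells, and Il1r2 22.6 CPM, against 1.94 CPM. The genes closest to Nrp1 were Ccl17, the dendritic cell chemokine, Nqo1 and Prdx1, which encode redox enzymes, at 0.046 to 0.048 (median 0.38). Those closest to Nrp2 were Spata13, Irf9, a subunit of the interferon-activated factor ISGF3, and Alox5, the leukotriene-forming 5-lipoxygenase, at 0.072 to 0.082 (median 0.58). Those closest to Vegfb were Znhit2, Arid1a and Chst12, at 0.043 to 0.046 (median 0.21). The 9 libraries shared 3 groups, and these values are a description with no test.

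**Figure D5:**
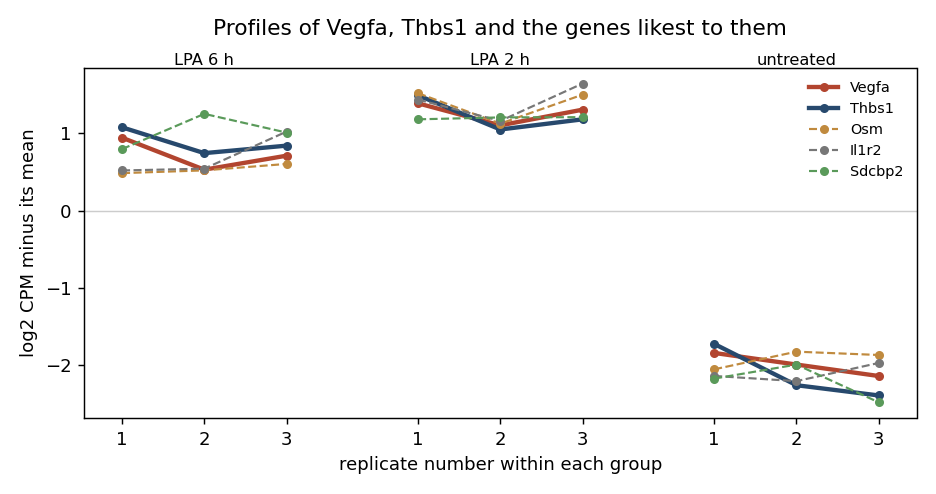
Log2 CPM minus its mean over the 9 libraries (vertical axis) for Vegfa, Thbs1 and the genes closest to them, by replicate number within LPA 6 h, LPA 2 h and untreated from left to right; lines only join the libraries of a group. All 5 genes lie below their mean in the 3 untreated libraries and above it in the 6 LPA libraries.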

How the data were processed

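The 9 RNA-seq libraries were non-stranded, per the labels' protocols. The authors deposited estimated counts per gene, as whole numbers unscaled for depth. RSEM 1.2.3, mm10 and DESeq2 appear in the submitters' processing notes, and the aligner is not given in the sources used here. RSEM divides reads shared between transcripts, so paralogue counts depend on that division. Each of the 38887 rows was assigned to GENCODE M21 genes by its transcript identifiers, which gave a single gene for 37776 rows (98.46% of all counts), several genes for 176 and none for 935.

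Counts were tested with edgeR 4.0.16 (R 4.3.3): filterByExpr by group with a minimum count of 10 and minimum total of 15, TMM factors, robust quasi-likelihood tests over all 9 libraries without a replicate block, and Benjamini-Hochberg adjustment over the 14363 genes kept, with calls at an adjusted p under 0.05. All 5 genes passed the filter. In counts simulated for these libraries, 75 of the 14190 genes run were changed 1.5-fold. Of these 75, 77.3% were called at 2 h and 84% at 6 h, each against untreated cells. The changed genes were drawn from rows with more counts than the filter requires, and far fewer genes were changed than were called in the data. The shares therefore do not describe genes at low counts. Alternatives were DESeq2 1.42.0, limma 3.58.1 (voom), other scalings and filters, fits of the 6 libraries compared, a replicate block and leaving out each library. The SE of a log2 fold change was derived from its edgeR F statistic, and approximate 95% intervals are 1.96 SE on either side. Ratios used two-sided exact permutation tests, and log2 CPM used a prior count of 2. Same-numbered libraries deviated together for 6 h against untreated cells (correlations 0.178, 0.144 and 0.151), a pairing seen in the data that the labels do not state, and the block changed no call of the 5 genes there. Replicates differed by more than sampling noise, so no library was a duplicate.

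Genes named from the 10 pathway lists were, per comparison, the 2 other genes with the largest absolute log2 fold change among those called with at least 1 CPM, plus the 3 genes closest in profile to each of the 5 genes; other list genes named were chosen after their values were seen. The members, lists and tests were chosen with earlier results of these data known. Fgf2 was not analysed here.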

Additional observations from a re-analysis of the deposited data

Results flagged for a closer look

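For 3 of the 5 genes the level differed between the LPA times, as tested by 6 h against 2 h in the edgeR fit. Vegfa differed by -0.53 on the log2 scale, with all 3 libraries of the 6 h group below all 3 of the 2 h group. Nrp1 differed by -0.71 and Nrp2 by -0.95, again without overlap between the 6 h and 2 h libraries. No explanation was tested.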

How the results depend on the processing

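The 5 genes were compared under 19 alternatives per comparison. The sum of all rows of a symbol, which is among them, was the main fit itself, because each gene had a single row. No direction of a call was reversed under the alternatives. Calls of Vegfa, Nrp1 and Nrp2 held under all of them in the 3 comparisons; Vegfa ranged from 3.18 to 3.33 at 2 h and 2.60 to 2.81 at 6 h, and Thbs1 from 3.21 to 3.57 and 2.86 to 3.21, as log2 fold changes against untreated cells. Vegfb at 6 h against 2 h passed with total counts alone as scaling (0.21, edgeR adjusted p = 0.0276). Leaving out a library moved Vegfb at 6 h against untreated cells between -0.22 and -0.12 and Thbs1 at 6 h against 2 h between -0.47 and -0.22. Other scalings moved the median of all genes by at most 0.053. The cause of these changes was not tested.

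With the replicate number as a block, Thbs1 at 6 h against 2 h was -0.35 (edgeR adjusted p = 0.00248), and no other call of the 5 genes changed. Same-numbered libraries correlated at 0.128, 0.0347 and 0.106 in that comparison, and at 0.165, 0.0904 and 0.184 for 2 h against untreated cells, so not every pair exceeded 0.1 and no pairing was assumed there. For 2 h against untreated cells every library correlated best with its own number, a hint from the data, while at 6 h against 2 h replicate 2 of the 6 h group did not. The block gave 6135, 8036 and 7588 called genes, against 5525, 7472 and 6991 without it, for 2 h against untreated cells, 6 h against untreated cells and 6 h against 2 h.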

Other observations

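Several vessel-related genes too low for the comparisons above were concentrated in untreated replicate 2. That library held 115 of the 134 counts of Sema3g over the 9 libraries, 55 of the 74 of Sema3f, 91 of the 110 of Sparc and 110 of the 128 of Tek, the angiopoietin receptor gene of endothelial cells. Epas1, which encodes the HIF-2 alpha subunit, was at 11.0 CPM there, against 3.62 and 4.31 CPM in the other untreated libraries. Without this library the 6 h log2 fold changes against untreated cells were 2.71 for Vegfa, -0.72 for Nrp1, -1.30 for Nrp2 and 2.90 for Thbs1, and no call of the 5 genes changed.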
